A study of Homo sapiens with 6 samples.

Results

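CPA4 and 7 neighbouring genes of human chromosome band 7q32 (CPA5, CPA1, CEP41, MEST, COPG2, TSGA13 and KLF14) were examined in HCT116 cells, a human colorectal carcinoma line, with and without forced expression of EPHX2. These were 8 of the 38041 genes in the deposited table. CPA4 was chosen by its lower level in EPHX2-expressing cells in these same libraries, so its values are given as a description, with no test. The other 7 genes were added for their family (the carboxypeptidase A cluster) or their position beside the imprinted gene MEST.

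The study asked how EPHX2, which encodes the soluble epoxide hydrolase, alters colorectal carcinoma cells. Total RNA was sequenced from 3 libraries of HCT116 cells stably transfected with a lentiviral EPHX2 vector and selected with puromycin (overEXP) and from 3 libraries of HCT116 cells of the negative control (NC). The sample titles and the study's results give NC cells an empty vector, its methods a negative control vector, and another label calls them untreated. Puromycin selection was described for lentivirus-infected cells, without separate mention of NC cells. The promoter that drove EPHX2 in overEXP cells was not given. Each group was described as 3 cell lines, with nothing to say that they came from separate infections or cultures, so the p-values compare the groups only with how much these libraries differ among themselves, and that variation may be technical.

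Carboxypeptidases of the M14 family are zinc enzymes that remove amino acids from the C-terminal end of proteins and peptides. CPA1 is a digestive enzyme of the pancreas, CPA5 is known from testis, and CPA4 is a secreted member first described in carcinoma cells, which prefers hydrophobic C-terminal residues. The region also holds an imprinted cluster, in which MEST is expressed from the paternal copy, while CPA4 and KLF14 are expressed from the maternal copy in some tissues. The libraries do not separate the parental copies, so imprinting itself was not measured.

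Levels are FPKM, fragments scaled by exon length and by the mapped fragments of the library, as the authors deposited them. EPHX2 had 157, 162 and 181 FPKM in the overEXP libraries, against 1.53, 1.96 and 1.5 FPKM in the NC libraries. Markers of colon carcinoma epithelium summed to 943 to 1086 FPKM in overEXP libraries and 1044 to 1370 FPKM in NC libraries, with 5 of 5 listed genes in the table. The keratins KRT8, KRT18 and KRT19 carried that sum. KRT19 averaged 306 FPKM in overEXP cells and 397 FPKM in NC cells, with all overEXP libraries below NC (all tested genes: 21.7%). EPCAM averaged 91.1 FPKM in overEXP cells and 73.6 FPKM in NC cells. CDH1 averaged 15 FPKM in overEXP cells and 9.42 FPKM in NC cells. Both EPCAM and CDH1 had all overEXP libraries above NC (all tested genes: 9.23%). None of KRT19, EPCAM and CDH1 was called by limma (adjusted p = 0.0874, 0.213 and 0.0761). Pancreatic acinar markers, 4 of 6 in the table, summed to at most 0.0903 FPKM in any overEXP library and 0.0625 FPKM in any NC library. The overEXP replicate 2 library stood apart: differentiated colonocyte markers, 3 of 3 in the table, summed to 222 FPKM in it, against 0.0600 to 0.180 FPKM in the other overEXP libraries and 0.0522 to 0.0635 FPKM in NC libraries. Fibroblast markers, 3 of 3 in the table, summed to 8.57 FPKM in it, against 2.34 to 3.28 FPKM in all other libraries. Leukocyte, mast cell and endothelium markers were also highest in it, at 0.354, 0.181 and 0.357 FPKM. Any other library had at most 0.125, 0.0490 and 0.137 FPKM of them. Read depth cannot be had from FPKM, so the counting error of low values is unknown. In bulk RNA, fewer cells that express a gene and less of its RNA per cell cannot be told apart.

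CPA4 (ENSG00000128510) lies on the plus strand of chromosome 7, from base 130293134 to base 130324180 of GRCh38, and overlaps no other gene of the GENCODE v44 annotation. Its canonical transcript has 11 exons and 2790 bases, and the deposited value sums 9 of its 11 annotated transcripts. CPA4 had 10.5, 10.3 and 12.0 FPKM in the overEXP libraries, against 28.6, 30.4 and 31.2 FPKM in the NC libraries. All 3 overEXP values lay far below all 3 NC values, and the libraries within each group were close to each other. The means were 10.9 ± 0.93 FPKM in overEXP cells and 30.1 ± 1.31 FPKM in NC cells (SD, n = 3 each), so the level in overEXP cells was 0.363 of that in NC cells, a 2.76-fold decrease. On the log2(FPKM + 1) scale, on which all fold changes below are given and which understates the change of low genes, the difference was -1.39 with a standard error of 0.08. Without the overEXP replicate 2 library the difference was -1.35.

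Genes were compared between groups with limma on that scale where at least 3 of the 6 libraries reached 1 FPKM, and a gene was called at a Benjamini-Hochberg adjusted p under 0.05 over all 12281 genes that passed. Of these, 366 genes (2.98%) were called lower in overEXP cells and 154 genes (1.25%) were called higher, and the median difference over all tested genes was -0.05. That split moved with the scaling: 852 lower and 94 higher after rescaling to TPM, 359 lower and 345 higher with median-of-ratios scaling, and 406 lower and 306 higher after quantile normalization. Rescaling to TPM moved the median of all tested genes to -0.20. By its difference CPA4 ranked 6 from the lowest among all 12281 tested genes and 3 among 10688 protein-coding genes. The protein-coding entries below it, AC023055 and AC010323, are known only by clone names. AC023055 had 0.0696, 0.0640 and 7.58 FPKM in overEXP cells, against 6.08, 11.5 and 7.27 FPKM in NC cells, so its groups overlapped. AC010323 had 0.598, 0.537 and 2.72 FPKM in overEXP cells, against 6.48, 8.0 and 3.82 FPKM in NC cells. Its overEXP libraries all lay below NC (all tested genes: 21.7%), and its mean fell 4.75-fold. Relative to their mean, the overEXP libraries of both entries were spread far more widely than those of CPA4.

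**Figure D1:**
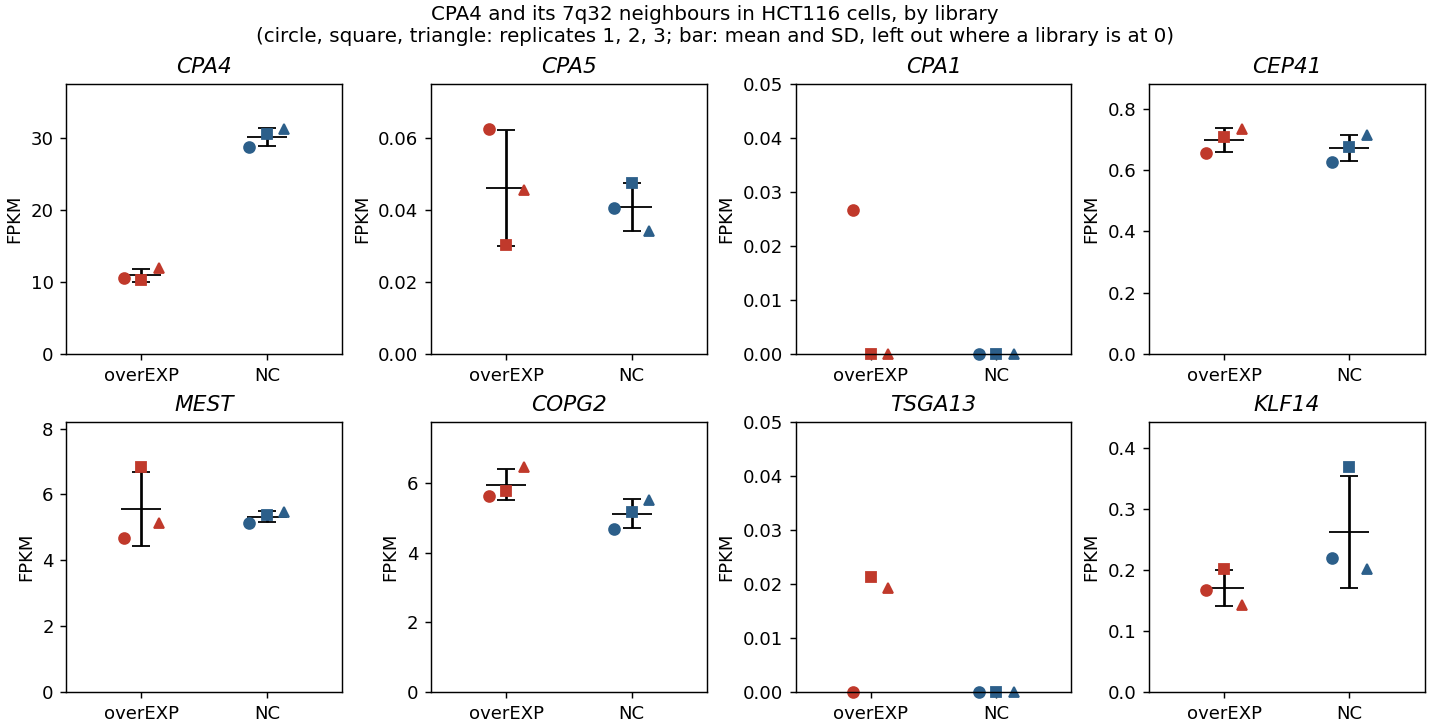
FPKM of the 8 genes in each library, with overEXP left of NC in every panel and its own vertical axis per gene. Circle, square and triangle are replicates 1, 2 and 3, and bars are the mean and SD, left out where a library is listed at 0. CPA4 is the only panel whose overEXP libraries (10.3 to 12.0 FPKM) all sit below the NC libraries (28.6 to 31.2 FPKM), and in the COPG2 panel the overEXP libraries all sit above.

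The promoter sequences are shown for the 3 genes that were expressed. RefSeq promoters of GRCh38.p14, 250 bases before and 50 bases after a start site, were matched for 7 of the 8 genes. In the CPA4 promoter (chr7:130292911-130293210, plus strand) the capitals mark the TATA box TATAAA, the AP-1 motif and the TEAD motif CATTCC, each searched on both strands. The AP-1 motif was searched loosely as TGANTCA, where N is any base.
CPA4: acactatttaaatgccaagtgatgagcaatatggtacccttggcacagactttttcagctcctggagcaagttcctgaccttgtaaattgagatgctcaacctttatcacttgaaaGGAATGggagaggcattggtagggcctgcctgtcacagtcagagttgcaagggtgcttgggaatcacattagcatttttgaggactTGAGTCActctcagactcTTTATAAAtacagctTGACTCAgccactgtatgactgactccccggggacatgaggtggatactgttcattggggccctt
With positions counted from the start site, TATAAA began at -28, with an overlapping match on the opposite strand at -30. TGANTCA, which reads the same on both strands, began at -48 (as TGAGTCA) and at -15 (as TGACTCA), on either side of the TATA box. CATTCC was found on the opposite strand at -134. Among 35116 RefSeq promoters of the same length, 11.5% held TATAAA, 7.71% held TGANTCA and 14% held CATTCC, and 27 promoters (0.0769%) held TATAAA together with at least 2 TGANTCA. That combination is the one seen in the CPA4 promoter, which is among the 27, so its share is a description and no test. All motif matches are letters in a window and say nothing of which factor bound there.

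The CPA4 promoter held 1 CG dinucleotide, a number that 11% of the 35116 promoters did not exceed, and the median promoter held 14 (quartiles 4 and 28). The promoters of MEST and COPG2, shown with each CG in capitals, were rich in CG, and neither held TATAAA or TGANTCA. The TEAD motif was found in the COPG2 window, at -188, as well as in that of CPA4. The MEST sequence is that of its canonical transcript (chr7:130491835-130492134, plus strand) and the COPG2 sequence is chr7:130668699-130668998, minus strand.
MEST: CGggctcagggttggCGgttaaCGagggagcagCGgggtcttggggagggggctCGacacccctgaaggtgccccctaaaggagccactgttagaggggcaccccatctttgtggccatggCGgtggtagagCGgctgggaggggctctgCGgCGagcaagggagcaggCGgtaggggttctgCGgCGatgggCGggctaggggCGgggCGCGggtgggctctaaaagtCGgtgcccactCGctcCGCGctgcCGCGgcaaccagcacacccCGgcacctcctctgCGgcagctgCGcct
COPG2: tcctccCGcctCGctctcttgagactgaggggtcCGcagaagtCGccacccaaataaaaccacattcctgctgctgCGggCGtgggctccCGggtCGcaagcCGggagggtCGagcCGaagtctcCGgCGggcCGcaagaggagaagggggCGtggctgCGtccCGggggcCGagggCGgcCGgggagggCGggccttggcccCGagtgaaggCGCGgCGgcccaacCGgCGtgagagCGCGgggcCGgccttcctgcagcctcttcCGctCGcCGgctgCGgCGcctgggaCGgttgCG
MEST held 25 CG in this window and COPG2 held 37. RefSeq lists other start sites for MEST, whose windows held 13 to 22 CG, and the window at chr7:130486097-130486396 held TGANTCA (as TGAATCA) at 42 bases after its start. Of the other neighbours KLF14 held 39 CG, CEP41 23, CPA1 11 and TSGA13 1. The TSGA13 window lies 887 bases from the start of its canonical transcript, while those of CPA4 and KLF14 lie at theirs. KLF14, the richest in CG of the 7, was at most 0.369 FPKM in any library. The GC box CCGCCC, held by 45.0% of all promoters, was found in these MEST and COPG2 windows and not in that of CPA4.

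**Figure D2:**
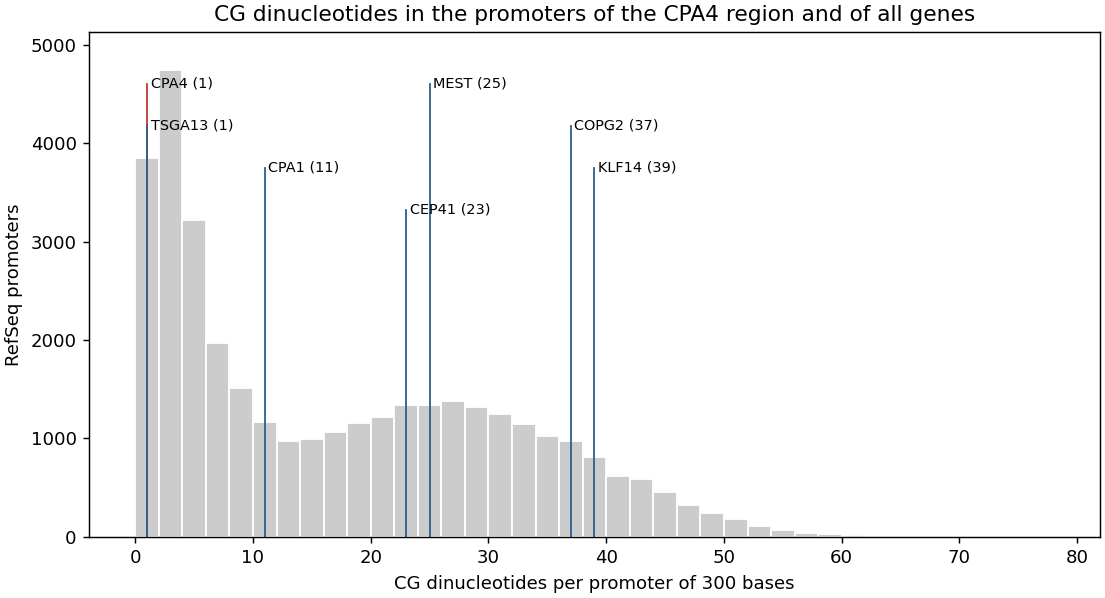
Number of CG dinucleotides (horizontal axis) in the 300-base promoters of all RefSeq genes (bars, number of promoters) with vertical lines for the promoters of the CPA4 region. CPA4 and TSGA13 share the position at 1 CG, far to the left of MEST at 25, COPG2 at 37 and KLF14 at 39.

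The other carboxypeptidase genes of the cluster were close to silent. CPA5 (ENSG00000158525, 130344816 to 130368730, plus strand) starts 51.7 kb from the CPA4 start. It had 0.0625, 0.0302 and 0.0456 FPKM in overEXP cells, against 0.0405, 0.0474 and 0.0342 FPKM in NC cells, with overlapping groups. CPA1 (ENSG00000091704, 130380339 to 130388114, plus strand) starts 87.2 kb from CPA4. It was listed at 0.0267, 0 and 0 FPKM in overEXP cells and at 0 in all 3 NC libraries. The CPA1 entry covers only 1 of 9 annotated transcripts, one with a retained intron, so its canonical messenger RNA was not part of that value. Neither gene passed the expression filter, and the 20635 bases between the end of CPA4 and the start of CPA5 thus separate a gene at 28.6 FPKM or more in NC cells from one below 0.1 FPKM in every library.

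CEP41 (ENSG00000106477, 130393771 to 130442433, minus strand) encodes a centrosomal and ciliary protein needed for glutamylation of ciliary tubulin. It had 0.656, 0.707 and 0.734 FPKM in overEXP cells, against 0.627, 0.675 and 0.714 FPKM in NC cells. The groups overlapped, and the gene did not pass the filter.

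MEST (ENSG00000106484, 130486171 to 130506465, plus strand), an imprinted gene for a membrane protein with a hydrolase fold, had 4.69, 6.83 and 5.14 FPKM in overEXP cells, against 5.14, 5.37 and 5.47 FPKM in NC cells. The overEXP values lay on both sides of the NC values, with replicate 2 the highest of the 6. The difference was 0.04 (standard error 0.12, 95% confidence interval -0.25 to 0.32, limma adjusted p = 0.881). The sign rests on the overEXP replicate 2 library, without which the difference was -0.10 (limma adjusted p = 0.575), and it was also -0.10 after rescaling to TPM. In that same library the imprinted transcript H19 had 49.2 FPKM, against 2.26 and 1.46 FPKM in the other overEXP libraries and 1.06 to 1.22 FPKM in NC libraries. The part that the differences of this library play in the MEST value was not tested.

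COPG2 (ENSG00000158623, 130506238 to 130668748, minus strand) encodes a gamma subunit of coatomer, the coat of COPI vesicles. It had 5.64, 5.78 and 6.47 FPKM in overEXP cells, against 4.68, 5.18 and 5.51 FPKM in NC cells. All overEXP values lay above all NC values, by a narrow margin. The difference was 0.19 (standard error 0.09, 95% confidence interval -0.01 to 0.39, limma adjusted p = 0.247), which did not pass the test. Among all tested genes, 9.23% had overEXP libraries that all lay above the NC libraries and 21.7% had them all below.

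At the far end of the region, TSGA13 (ENSG00000213265, 130668643 to 130687432, minus strand), a gene known from testis, was listed at 0, 0.0213 and 0.0192 FPKM in overEXP cells and at 0 in all 3 NC libraries. KLF14 (ENSG00000266265, 130730697 to 130734207, minus strand), an intronless gene for a Krüppel-like transcription factor, had 0.167, 0.202 and 0.142 FPKM in overEXP cells, against 0.219, 0.369 and 0.201 FPKM in NC cells. The highest overEXP value of KLF14 just exceeded the lowest NC value, so its groups overlapped. Neither gene passed the filter.

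Of the 8 genes, 3 passed the expression filter: CPA4, MEST and COPG2. Of the 7 chosen for family or position, 2 were tested by limma and 0 were called, also 0 at an unadjusted p under 0.05. Over all tested genes 2.98% were called lower and 1.25% higher, and at an unadjusted p under 0.05 16.4% were lower and 6.55% higher, so 0 of 2 says little about these genes. The levels of the 3 genes stood in different proportion in the groups, which largely restates the decrease for which CPA4 was chosen. CPA4 was at 1.96 times the FPKM of MEST in overEXP cells and 5.65 times in NC cells, and at 1.83 times that of COPG2 in overEXP cells and 5.87 times in NC cells. By level the order was CPA4, COPG2 and MEST in overEXP cells and CPA4, MEST and COPG2 in NC cells, and COPG2 and MEST were within their spread of each other in both groups. Next came CEP41 and KLF14, with CPA5, CPA1 and TSGA13 at the bottom, where the values are too low to order.

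Some of these genes share genomic sequence, and strandedness of the libraries was not stated. MEST and COPG2 overlap at their 3′ ends by 228 bases on opposite strands, COPG2 and TSGA13 overlap by 106 bases, and the antisense transcripts MESTIT1 and COPG2IT1 overlap MEST by 4863 bases and COPG2 by 7947 bases. Whether reads from the opposite-strand stretches were assigned by strand is therefore not known, and without strand they could not be told apart.

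Genes within 1 Mb on either side of the region were then read along the chromosome, to set CPA4 beside its wider neighbourhood. The table held 53 genes there, of which 37 were under 1 FPKM in every library. Besides CPA4, 15 genes were tested, 0 were called lower and 1 was called higher (all genes: 2.98% lower and 1.25% higher). At an unadjusted p under 0.05 in limma, 0 were lower and 2 were higher (all genes: 16.4% lower and 6.55% higher). Their median difference was 0.03 and they ran between -0.27 and 0.35. The nearest tested gene upstream, TMEM209, which encodes a nuclear envelope protein, starts at -85.4 kb from the CPA4 start. TMEM209 had 6.84, 7.91 and 8.52 FPKM in overEXP cells, against 6.77, 7.25 and 7.47 FPKM in NC cells (0.10, limma adjusted p = 0.546). In 3 of these genes all overEXP libraries lay above NC (all genes: 9.23%). ZC3HC1, for a nuclear pore basket protein, was the only other tested gene of the window with all overEXP libraries below NC (all genes: 21.7%). It had 6.03, 5.79 and 6.23 FPKM in overEXP cells, against 6.79, 6.51 and 7.02 FPKM in NC cells, and its difference of -0.15 did not pass the test (limma adjusted p = 0.250).

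The gene called higher was CDC26P1 (AC009244 in the table, ENSG00000238072), a processed pseudogene of the cell cycle gene CDC26, at 15.4, 16.1 and 16.3 FPKM in overEXP cells, against 11.6, 13.2 and 12.1 FPKM in NC cells. Its difference was 0.35 (standard error 0.07, limma adjusted p = 0.0421). The value is uncertain because reads of CDC26 and its copy may be split between them. The call was lost in 9 of 12 alternative settings (adjusted p between 0.0265 and 0.214), including the removal of any 1 library of the 6, which left adjusted p between 0.0552 and 0.163.

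**Figure D3:**
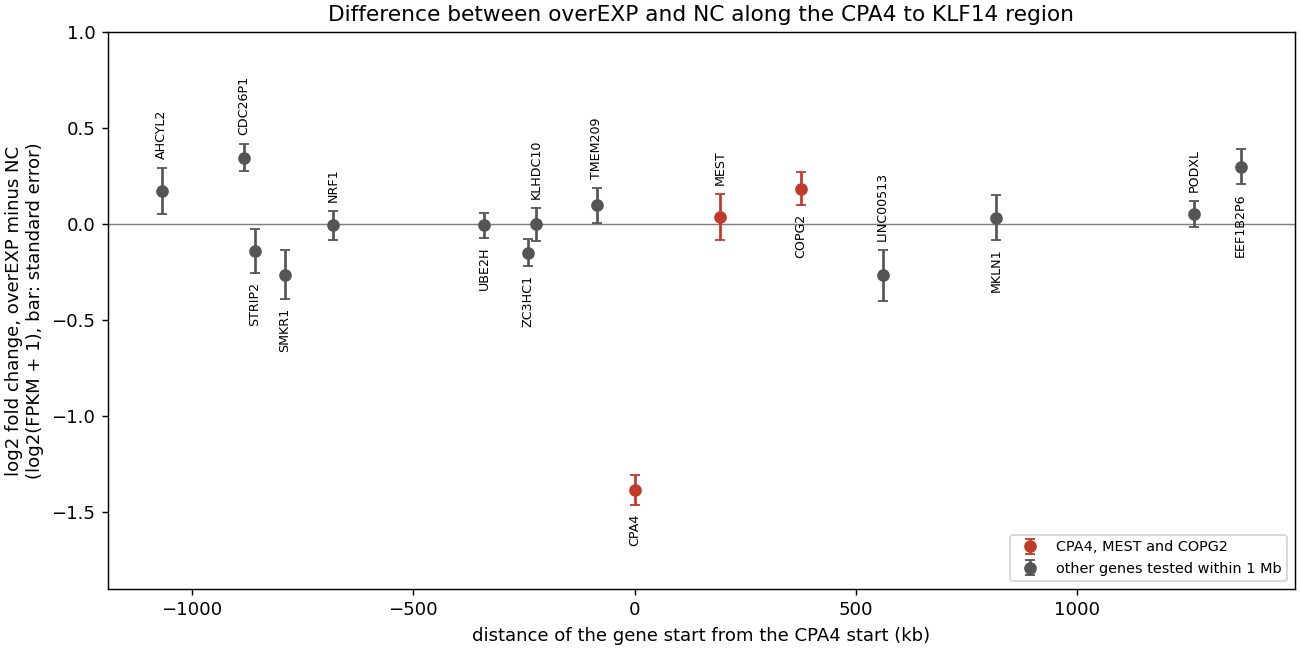
Difference between overEXP and NC on the log2(FPKM + 1) scale (vertical axis, bar: standard error) against distance of the gene start from the CPA4 start in kb (horizontal axis) for the tested genes within 1 Mb of the region. CPA4 lies at -1.39 and the other 15 genes lie between -0.27 and 0.35.

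The M14 family was read next, and no tested member other than CPA4 differed between the groups by more than 0.38. Of 23 listed genes 21 were in the table, 14 of them under 0.5 FPKM in every library, and besides CPA4 4 were tested, of which 1 was called higher and 0 lower (all genes: 1.25% higher and 2.98% lower). CPD, a membrane enzyme of the trans-Golgi network, had 7.50, 8.33 and 9.16 FPKM in overEXP cells, against 7.99, 8.37 and 8.87 FPKM in NC cells (-0.01, limma adjusted p = 0.934). The groups overlapped. CPE, which trims prohormones in secretory granules, had 8.70, 9.69 and 8.83 FPKM in overEXP cells, against 6.94, 6.95 and 6.30 FPKM in NC cells. CPE rose by 0.38 (standard error 0.08, limma adjusted p = 0.0389), in the opposite direction to CPA4, with all overEXP libraries above NC (all genes: 9.23%). The CPE call was lost in 8 of 12 alternatives (adjusted p between 0.0230 and 0.160). These included the removal of NC replicate 1, 2 or 3 (0.101, 0.134 and 0.160) or of overEXP replicate 2 or 3 (0.113 and 0.0568).

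AGTPBP1 and AGBL5 are cytosolic members that remove glutamates from tubulin. AGTPBP1 had 3.90, 4.12 and 4.16 FPKM in overEXP cells, against 4.75, 4.68 and 4.95 FPKM in NC cells, a difference of -0.20 that did not pass the test (limma adjusted p = 0.149). Its overEXP libraries all lay below NC (all genes: 21.7%). AGBL5 had 3.56, 4.31 and 4.71 FPKM in overEXP cells, against 4.55, 4.25 and 4.64 FPKM in NC cells (-0.08, limma adjusted p = 0.650). In NC cells CPA4 thus had the highest FPKM of the family in every library, and in overEXP cells it still did, with 10.3 FPKM at the lowest against 9.69 FPKM for the highest value of any other member. AEBP1, a secreted member that lacks enzyme activity, reached 0.710 FPKM in the overEXP replicate 2 library, against 0.0634 and 0.0402 FPKM in the other overEXP libraries and at most 0.0510 FPKM in NC libraries. The carboxypeptidase inhibitors LXN and RARRES1 were both in the table, and 0 of the 2 passed the filter.

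**Figure D4:**
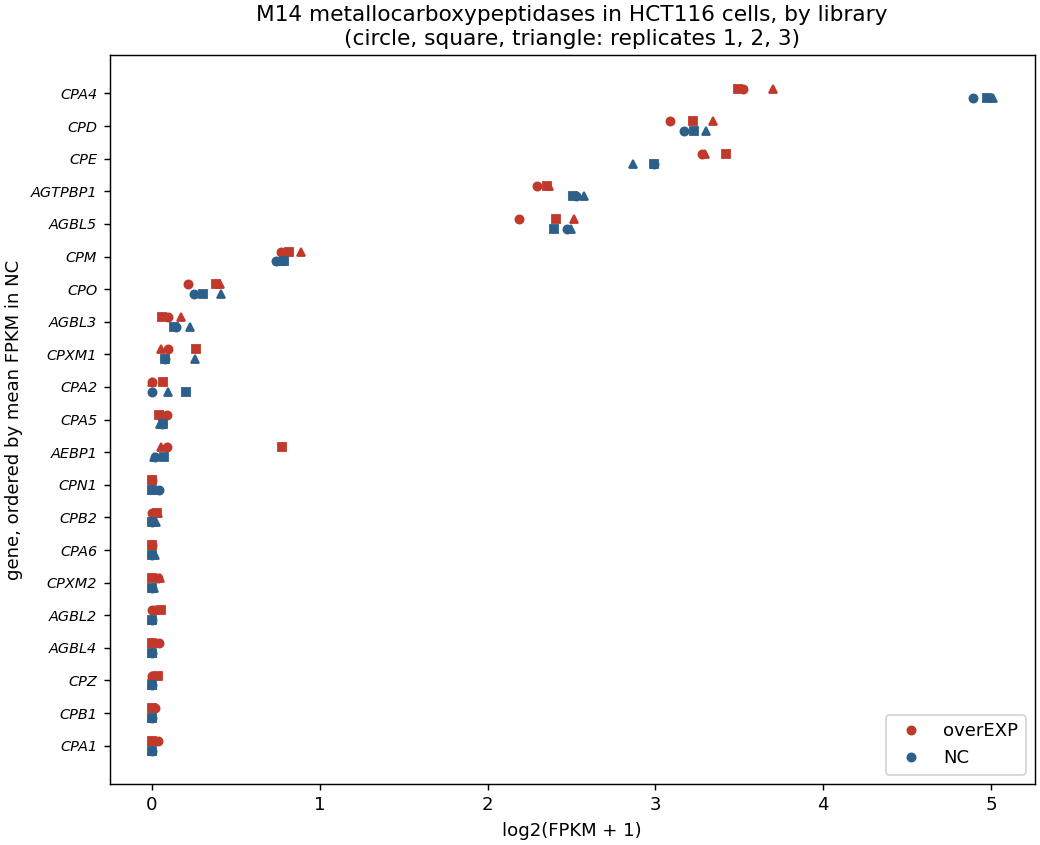
log2(FPKM + 1) (horizontal axis) of the 21 M14 metallocarboxypeptidase genes in the table, ordered by mean FPKM in NC, with overEXP drawn above NC in each row and circle, square and triangle for replicates 1, 2 and 3. CPA4 is the highest gene in both groups and the only one with its overEXP libraries far to the left of NC, while CPE has its overEXP libraries to the right.

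For the pathways of the neighbours, lists of related genes were read in the same way. Of 14 COPI coat genes 13 were tested, and limma called 0 higher and 0 lower, with 0 higher and 2 lower at an unadjusted p under 0.05. Over all tested genes 1.25% and 2.98% were called higher and lower, and 6.55% and 16.4% were higher and lower unadjusted, so the COPI counts were near those of all genes. Their median difference was -0.13 with a range of -0.31 to 0.19, and COPG2 was the highest of them. COPG1, the paralogous gamma subunit, had 30.4, 32.7 and 34.0 FPKM in overEXP cells, against 31.4, 33.6 and 33.9 FPKM in NC cells (-0.03, limma adjusted p = 0.847), and averaged 32.4 FPKM in overEXP cells and 33.0 FPKM in NC cells, above COPG2 in every library. ARF1, the small GTPase that recruits the coat, had 84.6, 95.6 and 95.2 FPKM in overEXP cells, against 102, 98.2 and 101 FPKM in NC cells (-0.13, limma adjusted p = 0.331). The delta subunit ARCN1 had 39.7, 40.7 and 43.9 FPKM in overEXP cells, against 48.1, 49.0 and 47.1 FPKM in NC cells (-0.21, limma adjusted p = 0.105). Of the 13 tested COPI genes, COPG2 alone had overEXP libraries that all lay above NC (all genes: 9.23%), and 4 had them all below (all genes: 21.7%).

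Of 22 genes for tubulin glutamylation, the process CEP41 serves, 19 were in the table and 8 were tested. limma called 0 higher and 0 lower (all genes: 1.25% higher and 2.98% lower), and the median was -0.10. At an unadjusted p under 0.05 in limma, 0 were higher and 1 lower (all genes: 6.55% higher and 16.4% lower). TPGS2, a subunit of the polyglutamylase complex, had 5.46, 4.99 and 5.52 FPKM in overEXP cells, against 5.71, 5.75 and 6.02 FPKM in NC cells (-0.11, limma adjusted p = 0.395). The glutamylase TTLL4 had 3.93, 5.17 and 5.38 FPKM in overEXP cells, against 5.24, 5.42 and 5.21 FPKM in NC cells (-0.12, limma adjusted p = 0.537), with overlapping groups.

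Of 27 KLF and SP zinc-finger factors, the family of KLF14, 26 were in the table and 17 were tested. Of these, 1 was called lower and 1 higher (all genes: 2.98% lower and 1.25% higher), with a median of 0.07. At an unadjusted p under 0.05 in limma, 4 were higher and 2 lower (all genes: 6.55% higher and 16.4% lower). All overEXP libraries lay above NC in 5 genes and below NC in 3 (all genes: 9.23% and 21.7%). KLF6, an early-response factor, fell to 21.6, 24.5 and 25.4 FPKM in overEXP cells, against 35.2, 34.3 and 34.3 FPKM in NC cells (-0.52, standard error 0.07, limma adjusted p = 0.0165). KLF9, known as a target of glucocorticoid and thyroid hormone, had 2.63, 3.07 and 3.01 FPKM in overEXP cells, against 1.88, 1.94 and 1.72 FPKM in NC cells (0.45, standard error 0.09, limma adjusted p = 0.0376). In both genes the groups did not overlap. KLF16, the gene from which KLF14 is thought to be copied, had 18.6, 16.3 and 17.5 FPKM in overEXP cells, against 24.6, 18.8 and 19.4 FPKM in NC cells (-0.24, limma adjusted p = 0.239). KLF10 had 13.9, 17.3 and 17.8 FPKM in overEXP cells, against 20.7, 21.6 and 22.2 FPKM in NC cells. Its difference of -0.38 did not pass the test (limma adjusted p = 0.0731), with all overEXP libraries below NC. The KLF6 call was lost in 5 of 12 alternatives (adjusted p between 0.00959 and 0.0853), among them without NC replicate 1, 2 or 3 (0.0589, 0.0853 and 0.0791) or overEXP replicate 2 (0.0562). The KLF9 call was lost in 8 of 12 (between 0.0164 and 0.151), among them without NC replicate 1, 2 or 3 (0.109, 0.128 and 0.151) or overEXP replicate 2 or 3 (0.107 and 0.0604).

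Of 56 imprinted genes elsewhere and in the region 49 were in the table, and besides CPA4 22 were tested. limma called 0 of them higher and 0 lower (all genes: 1.25% higher and 2.98% lower), and the median difference was -0.10. At an unadjusted p under 0.05 in limma, 2 were higher and 1 lower (all genes: 6.55% higher and 16.4% lower). All overEXP libraries lay above NC in 3 of them and below NC in 3 (all genes: 9.23% and 21.7%). PHLDA2, a maternally expressed regulator of placental growth, had 97.6, 65.5 and 74.9 FPKM in overEXP cells, against 121, 83.1 and 83.3 FPKM in NC cells (-0.27, limma adjusted p = 0.434), with overlapping groups. GNAS, for a stimulatory G protein subunit, had 26.8, 32.8 and 28.3 FPKM in overEXP cells, against 25.4, 26.3 and 27.1 FPKM in NC cells (0.15, limma adjusted p = 0.345). The highest difference in the list was that of H19, 1.78 with a standard error of 1.01 (limma adjusted p = 0.340), carried by the overEXP replicate 2 library.

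Finally, the tested genes with the pattern most like CPA4 over the 6 libraries were found by the root mean square difference of log2(FPKM + 1) values, each gene centred on its own mean. The nearest was KRTAP2-3, for a keratin-associated protein, at 0.153. KRTAP2-3 had 15.2, 12.5 and 13.1 FPKM in overEXP cells, against 35.2, 31.1 and 33.3 FPKM in NC cells. SEMA7A, for a membrane-anchored semaphorin, followed at 0.177, with 8.84, 8.13 and 9.30 FPKM in overEXP cells, against 20.0, 18.5 and 19.4 FPKM in NC cells. Both were lower in every overEXP library, as the measure requires of any gene near CPA4. MIR6881 at 0.234, whose annotation lies inside SEMA7A, and the mitochondrial tRNA genes MT-TF at 0.235 and MT-TG at 0.236 came next. These last 3 are very short features, for which FPKM is unreliable. MEST stood at 0.733 and COPG2 at 0.787, against a median of 0.678 over all tested genes. The measure rests largely on the decrease for which CPA4 was chosen, so any gene without that decrease stands far from it. These distances therefore add nothing to the differences of MEST and COPG2 given above.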

How the data were processed

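RNA from 3 overEXP and 3 NC libraries of HCT116 cells was sequenced on an Illumina NovaSeq instrument. The authors filtered reads with FastQC, used HISAT2 (version 2.0.4, from the submitters' processing notes) for mapping to GRCh38, and assembled and merged transcripts with StringTie and gffcompare. The deposited values are FPKM per gene and library, estimated by StringTie. The deposited table also holds the authors' own fold changes, p-values and q-values, which were not used. Samples were grouped by their titles and table columns by their names, and 37906 of 38041 gene IDs were placed with GENCODE v44. Values were transformed as log2(FPKM + 1), genes with at least 1 FPKM in at least 3 libraries were kept, and overEXP was compared with NC by limma 3.58.1 in R 4.3.3 with Benjamini-Hochberg adjustment over all genes kept. The fit was tested on simulated data.

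The genes and lists were chosen with earlier results of these data known. Named were the 8 genes of the region and every gene within 1 Mb or on a list with an adjusted p under 0.05. Up to 4 genes of each list among those with the highest mean FPKM were named too, though some at such levels, such as COPZ1, were left out. The 5 genes most like CPA4 were also named. Others (TMEM209, ZC3HC1, H19, AEBP1, AC023055 and AC010323) were named after their values were seen. Alternatives were a pseudocount of 0.1, no expression filter, TPM, median-of-ratios or quantile scaling, a replicate block, and the removal of each library in turn. Promoter sequences are from RefSeq (GRCh38.p14).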

Additional observations from a re-analysis of the deposited data

How the results depend on the processing

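Of 12 alternative settings, 0 called MEST or COPG2. CPA4 lay between -1.58 and -1.32 throughout, at -1.58 after rescaling to TPM and between -1.45 and -1.35 with 1 library left out. MEST was -0.10 with TPM (median of all tested genes -0.20) and ran between -0.10 and 0.13 with 1 library left out. COPG2 ran between 0.07 and 0.25 (limma adjusted p between 0.0920 and 0.733). The count of all genes called lower was 2 with no expression filter, 852 with TPM and 21 to 383 with 1 library left out, against 366. The count called higher was 3 with no filter, 94 with TPM, 345 with median-of-ratios scaling, 306 with quantile normalization and 23 to 199 with 1 library left out, against 154. Within 1 Mb of the region, the count called higher besides CPA4 was 0 with no filter, with TPM and with any 1 library left out, against 1. Over the gene lists, the count called lower besides CPA4 was 0 with no filter, 2 with TPM and 0 to 1 with 1 library left out, against 1, and the count called higher was 0 with no filter, 0 with TPM and 0 to 3 with 1 library left out, against 2. The cause of these shifts was not tested.

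Same-numbered overEXP and NC libraries deviated together with correlations of 0.358, -0.02 and 0.367. Libraries of unlike number gave correlations between -0.418 and 0.201. These values do not settle whether the replicate numbers pair the samples, and the main fit did not pair them. With a replicate block CPA4 stayed at -1.39, all genes gave 213 lower and 118 higher, 0 genes were called higher within 1 Mb and 0 over the lists. Depth could not be had from FPKM, so which low values are within counting error is unknown.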
